A study of Mus musculus with 12 samples.

Results

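The genes described here are those of the potassium channels of the mouse, taken as every gene whose symbol starts with Kcn, followed by letters and a number. The rule matched 92 of the 24531 genes in the deposited tables, and the 69 with a mean FPKM (a read level scaled to transcript length and library size) of at least 0.5 over all libraries are described as members. Of the other 23 genes, 3 (Kcnmb3, Kcnk16 and Kcnk18) had a count of 0 in every library. Kcnmb2 was the member closest to the threshold, with a mean of 0.676 FPKM, and Kcne4 lay just under it with 0.414.

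RNA was taken from 2 amygdala nuclei, basolateral (BLA) and central (CeA), in male wild-type mice. The strains were C57BL/6 (B6) and 129S1/SvImJ, here S1. Animals of each strain were left naive, underwent fear conditioning (FC), or also underwent extinction of that fear (Ext), which is known to be impaired in S1. The 12 groups held 1 library each, with no replicate. The labels give neither the age of the mice nor how many went into a library, and the design text names the medial central amygdala (CEm) where the labels say CeA. No group carried a transgene, a deletion or a drug.

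Potassium channels let potassium leave the cell down its gradient, which holds the resting potential of neurons and ends their action potentials. The genes fall into 5 classes. Voltage-gated pore-forming subunits open on depolarization, and auxiliary subunits set their inactivation and surface delivery. Inward rectifiers conduct best near rest, and some of them are opened by G proteins or closed by ATP. Tandem pore domain channels carry background leak, and most pores of the remaining class are opened by intracellular calcium or sodium. The classes were assigned by symbol, which placed Kcnu1 and the auxiliary Kcnmb genes in that last class. In principal neurons of the amygdala, A-type, M-type and calcium-activated potassium currents are known to shape firing and its adaptation.

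Total counts ran from 42224899 to 61695302 per library, and 17147 to 17630 genes had at least 1 count. The labelled regions were checked with marker genes. The 6 markers of BLA excitatory neurons summed to 693 to 768 FPKM in the BLA libraries and to 5.48 to 74.6 FPKM in the CeA libraries. The naive B6 CeA library held the highest CeA sum (74.6) and the conditioned S1 CeA library the next (35.8), above the 5.48 to 15.7 of the other CeA libraries. The 8 markers of CeA and striatal neurons summed to 1888 to 2615 FPKM in CeA and to 172 to 429 FPKM in BLA. In tissue RNA of this kind, fewer cells of a type and less RNA per cell cannot be told apart.

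The members spanned a wide range of levels. Among auxiliary subunits Kcnip2, a calcium-binding partner of A-type channels, had the highest mean of all members (98.9 FPKM), followed by Kcnab2 (69.9 FPKM) and Kcnab1 (35.9 FPKM), the cytoplasmic beta subunits of Shaker-type channels. Voltage-gated pore-forming genes of high level included the ELK-type Kcnh3 (44.0 FPKM) and the electrically silent subunit gene Kcnf1 (28.3 FPKM). Kcnh3 overlaps Mcrs1, so part of its count may belong to that gene unless strand was used. Inward rectifiers were led by Kcnj4 (60.5 FPKM), the G-protein-gated Kcnj9 (25.2 FPKM) and the glial Kcnj10 (19.2 FPKM). Tandem pore domain genes were led by Kcnk1 (25.8 FPKM), Kcnk2 (11.7 FPKM) and Kcnk4 (3.66 FPKM). In the calcium- or sodium-activated class the means were 32.8 FPKM for Kcnmb4, an auxiliary subunit of the large-conductance BK channel, 28.9 FPKM for the sodium-activated Kcnt1, and 14.2 FPKM for the small-conductance Kcnn2.

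The difference between the regions gave the most calls among these genes. Before extinction, in the 8 naive and conditioned libraries, 41 of the 69 members were higher in BLA and 12 were lower (edgeR quasi-likelihood test, adjusted p under 0.05). That was 76.8% of the members, against 46.6% of all 16274 genes tested. Over all genes the calls were balanced, with 23.2% higher and 23.4% lower in BLA. The median log2 fold change of the members, BLA minus CeA, was 0.40, against -0.01 for all genes. Without any 1 library the counts were 38 to 41 higher and 10 to 15 lower, without the naive B6 CeA library they were 39 and 13, and without the conditioned S1 CeA library 40 and 10. Kcnd1, Kcnh3, Kcnj11, Kcnmb4 and Kcnt1 were called with all 8 libraries but not in every fit without 1 of them. The 5 oligodendrocyte markers were also higher in BLA, and their part in the result was not tested. All 12 FPKM values separated by region, with no overlap, in 31 members, 19 of them with BLA above CeA and 12 with CeA above BLA. The share of all genes that separated in this way is not given here, so this count describes levels only.

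**Figure D1:**
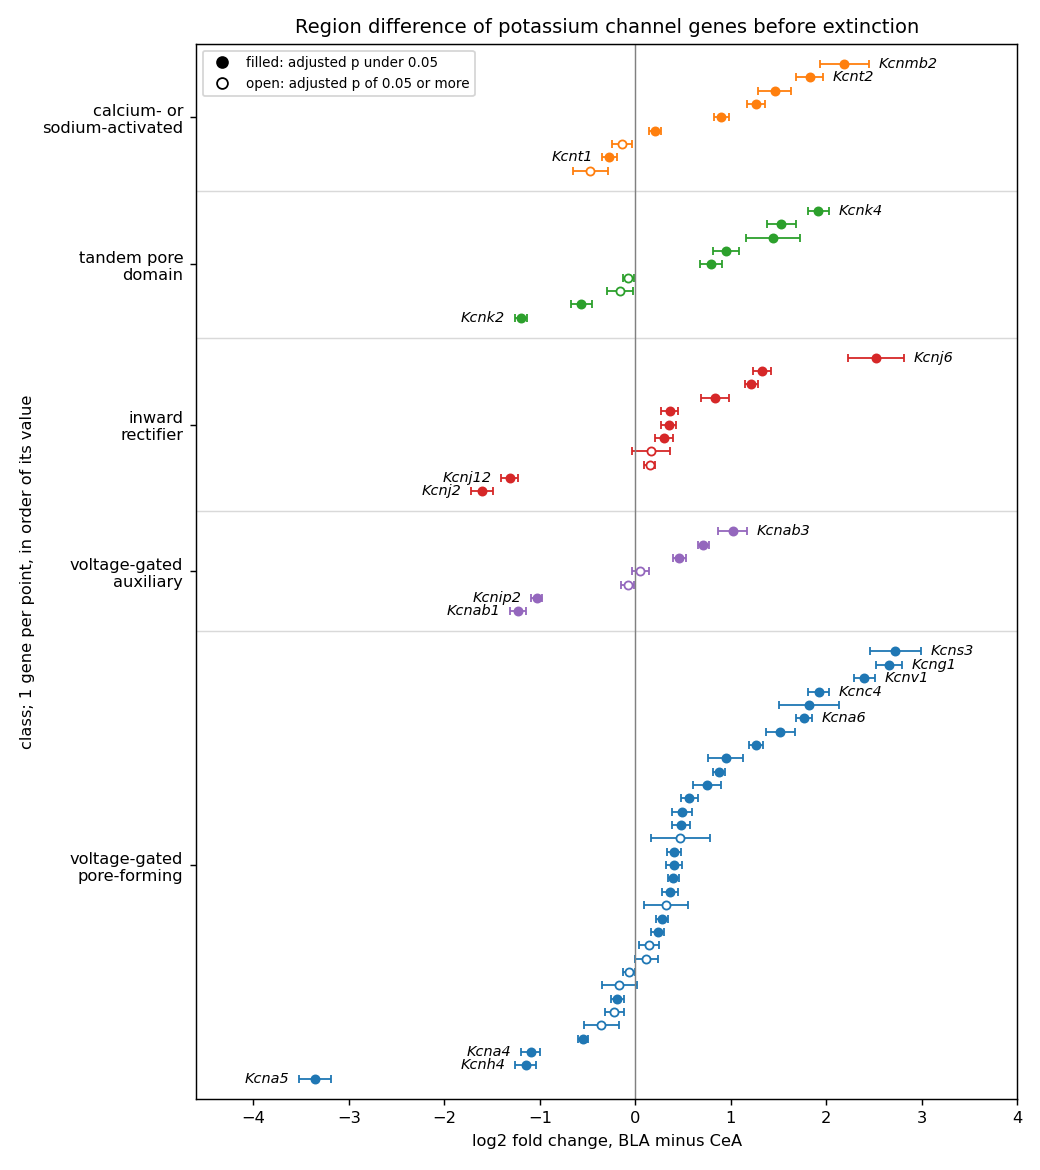
Log2 fold change between BLA and CeA for each of the 69 members in the 8 naive and conditioned libraries, grouped by class, with horizontal bars of 1 SE from the edgeR fit and names beside some of the genes; filled points passed an adjusted p of 0.05. Points right of 0 were higher in BLA; 41 filled points lie there and 12 lie left of 0, from Kcns3 at 2.72 down to Kcna5 at -3.35.

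Of the 33 voltage-gated pore-forming genes, 20 were higher and 5 were lower in BLA. The largest difference in favour of BLA was found in Kcns3, which encodes an electrically silent subunit that alters Kcnb channels. It had a lowest, median and highest level of 1.49, 1.83 and 2.12 FPKM in the 6 BLA libraries and of 0.149, 0.284 and 0.569 FPKM in the 6 CeA libraries. The regions did not overlap, and the difference was 2.72 ± 0.27 on the log2 scale (± SE here and below, edgeR adjusted p = 8.6e-05). Kcng1, another silent subunit gene, stood at 19.3, 30.9 and 39.1 FPKM in BLA and at 4.38, 5.81 and 7.28 FPKM in CeA, a log2 difference of 2.65 ± 0.14. Kcnv1, also of the silent kind, stood at 15.7, 16.5 and 19.8 FPKM in BLA and at 2.60, 3.40 and 4.49 FPKM in CeA, a log2 difference of 2.40 ± 0.11. Every BLA library of these genes was above every CeA library.

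Other voltage-gated genes higher in BLA were the Shaw-type Kcnc4 (log2 difference 1.92 ± 0.11), the Shaker-type Kcna6 (1.77 ± 0.08), the ERG-type Kcnh7 (1.82 ± 0.32) and the silent Kcnf1 (1.26 ± 0.08). Kcnh7 was the exception in its levels. Its BLA libraries ran from 0.366 to 2.69 FPKM and its CeA libraries from 0.111 to 1.39 FPKM, so that the regions overlapped across conditions.

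In the opposite direction, Kcna5 showed the largest regional difference of any member. This Shaker-type gene stood at 0.709, 1.02 and 1.93 FPKM (lowest, median, highest) in BLA and at 10.3, 11.5 and 12.2 FPKM in CeA. The difference was -3.35 ± 0.17 on the log2 scale, a 10.2-fold lower level in BLA (edgeR adjusted p = 3.5e-06). Kcna4, the A-type member of the Shaker family, was lower in BLA as well (-1.10 ± 0.10), with 3.34 to 4.63 FPKM there and 7.66 to 10.4 FPKM in CeA. The ELK-type Kcnh4 (-1.15 ± 0.11) and the M-current gene Kcnq5 (-0.55 ± 0.06) were also lower in BLA. Members of the same family thus lay on both sides. Kcna1, Kcna2 and Kcna6 were higher in BLA while Kcna4 and Kcna5 were lower, and Kcnq3 was higher while Kcnq5 was lower.

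Among the 7 auxiliary members, 3 were higher and 2 lower in BLA. Kcnip2, which binds Kcnd channels and changes their inactivation, stood at 55.1, 62.5 and 75.0 FPKM in BLA and at 123, 135 and 148 FPKM in CeA, a log2 difference of -1.03 ± 0.06. Kcnab1, whose product confers fast inactivation on Shaker-type channels, stood at 17.6, 20.9 and 24.7 FPKM in BLA and at 45.7, 51.0 and 55.0 FPKM in CeA, a log2 difference of -1.23 ± 0.09. Both were higher in every CeA library than in any BLA library. The other beta subunit genes went the other way, with 1.02 ± 0.15 for Kcnab3 and 0.71 ± 0.06 for Kcnab2. The pore-forming partners of Kcnip2 differed less, at 0.36 ± 0.08 for Kcnd3, -0.07 ± 0.06 for Kcnd2 (adjusted p = 0.414) and -0.19 ± 0.07 for Kcnd1.

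**Figure D2:**
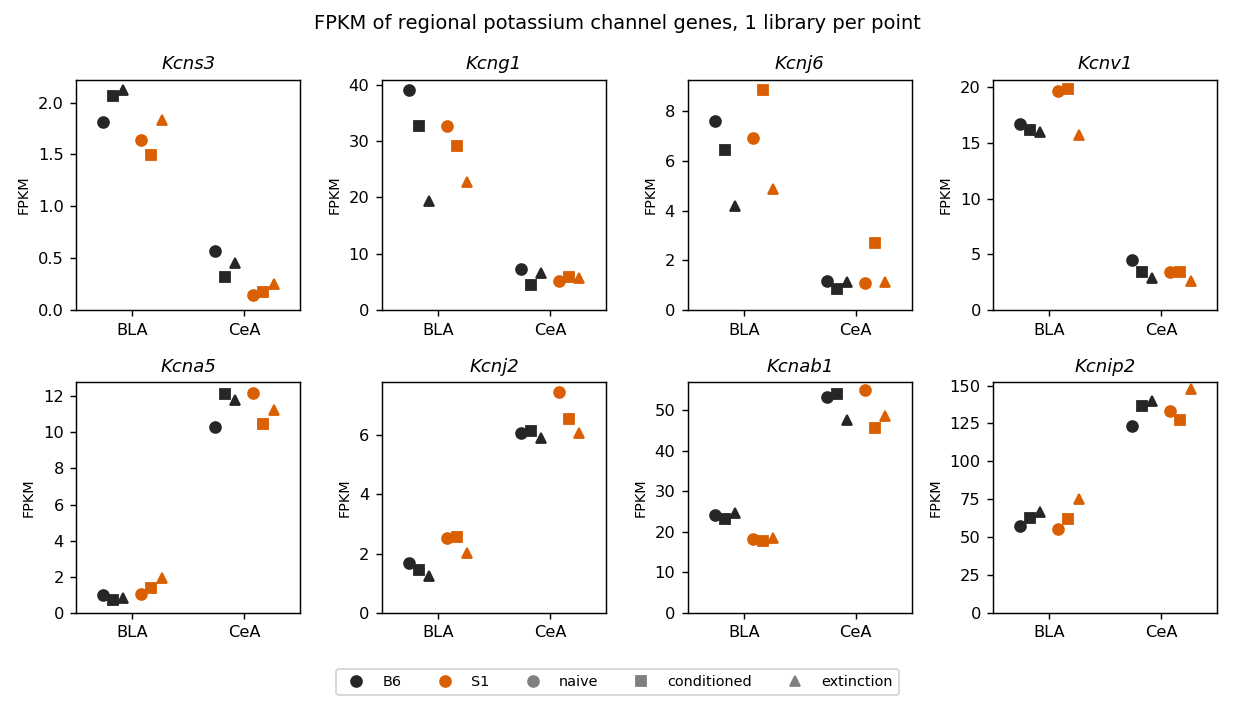
FPKM of 8 regional members in every library, on linear axes from 0. Black points are B6 and orange points S1, circles are naive, squares conditioned and triangles extinction libraries; in each panel the 6 BLA values and the 6 CeA values do not overlap.

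Among the 11 inward rectifiers, 7 were higher and 2 lower in BLA. The 3 G-protein-gated members were all higher, with log2 differences of 2.52 ± 0.30 for Kcnj6, 1.33 ± 0.09 for Kcnj9 and 1.21 ± 0.07 for Kcnj3. Kcnj5, also G-protein-gated, lay under the FPKM threshold of members. It was lower in BLA in the extinction libraries (-2.32 ± 0.36, edgeR adjusted p = 0.012). Kcnj6 stood at 4.21, 6.69 and 8.87 FPKM in BLA and at 0.852, 1.13 and 2.71 FPKM in CeA, where the conditioned S1 library held the 2.71. That library also carried one of the raised sums of BLA marker genes, and the part of those cells in its Kcnj6 level was not tested. The 2 members that were lower in BLA encode strong inward rectifiers. Kcnj2 stood at 1.24, 1.85 and 2.58 FPKM in BLA and at 5.91, 6.11 and 7.47 FPKM in CeA (-1.60 ± 0.11), and Kcnj12 at 1.24 to 1.74 FPKM in BLA and 3.62 to 4.20 FPKM in CeA (-1.32 ± 0.09). Kcnj4, the strong rectifier with the highest level, did not pass the test (0.15 ± 0.06, edgeR adjusted p = 0.0731).

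Of the 9 tandem pore domain members, 5 were higher and 2 lower in BLA. The mechanosensitive leak channels differed in direction. Kcnk4 was higher in BLA (1.92 ± 0.11), with 5.05 to 6.66 FPKM there and 1.20 to 1.90 FPKM in CeA, and Kcnk10 was higher as well (0.95 ± 0.14). Kcnk2 was lower (-1.20 ± 0.06), with 4.89, 6.93 and 8.23 FPKM in BLA and 12.6, 17.6 and 19.6 FPKM in CeA. The halothane-inhibited pair also split, with 1.53 ± 0.15 for Kcnk12 and -0.57 ± 0.11 for Kcnk13. The acid-sensitive Kcnk9 (1.44 ± 0.28) and Kcnk3 (0.80 ± 0.11) were higher in BLA. Kcnk3 shares its locus with Gm9899, whose mean of 11.3 CPM (counts scaled to library size) is close to the 12.6 CPM of Kcnk3, so its value is uncertain.

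Of the 9 calcium- or sodium-activated members, 6 were higher in BLA and 1, Kcnt1, was lower. Without 1 library, Kcnt1 did not pass in 5 of 8 fits (edgeR adjusted p up to 0.0736) and Kcnmb4, one of the 6, in 6 of 8 (edgeR adjusted p up to 0.115). Kcnmb2, an inactivating auxiliary subunit of the BK channel, had the largest difference (2.19 ± 0.26), with 0.953 to 1.26 FPKM in BLA and 0.121 to 0.371 FPKM in CeA. The BK pore gene Kcnma1 was higher by 1.46 ± 0.17. The sodium-activated genes had 1.83 ± 0.14 for Kcnt2 and -0.27 ± 0.08 for Kcnt1. Among the small-conductance genes, Kcnn1 (1.26 ± 0.09) and Kcnn2 (0.90 ± 0.08) were higher, and Kcnn3 did not pass (-0.47 ± 0.18, edgeR adjusted p = 0.0659).

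The regional pattern was also measured in the 4 extinction libraries, which were fitted alone. There 32 members were higher and 12 lower in BLA, 63.8% of the members against 36.3% of all 15996 genes tested (18.8% higher and 17.5% lower). Both sets of libraries called 40 members, all in the same direction. These were 75.5% of the members called before extinction and 90.9% of those called after it. The same shares over all genes are not given here. Kcna5 differed by -3.04 ± 0.32, Kcnv1 by 2.64 ± 0.08, Kcns3 by 2.62 ± 0.24, Kcnmb2 by 2.90 ± 0.35 and Kcnj2 by -1.82 ± 0.17 on the log2 scale. Kcnh1, Kcnip1, Kcnj4 and Kcnn3 passed in the extinction libraries alone, and of the members called before extinction only Kcnj11 and Kcnk9 had the opposite sign afterwards, without passing. Whether a regional difference changed with extinction was not tested. With the 12-library fit and 1 extinction library left out, 1 region kept a single extinction library. Fewer members and fewer of all genes were then called.

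The strain comparison asks which channel genes differ between S1, with its impaired extinction, and B6. Before extinction, 18 members were higher in S1 and 7 were lower (edgeR adjusted p under 0.05). That was 36.2% of the members against 22.8% of all genes, of which 12.4% were higher and 10.4% lower. The lower and the higher members differed in how far they depended on single libraries. Without any 1 library, 5 of the 7 lower members kept passing (Kcnab2, Kcns1, Kcnj11, Kcnip3 and Kcnk2). Of the 18 higher members only Kcnq5 did. Over all genes, 2021 higher and 1691 lower calls became 628 to 2819 and 861 to 2408 with 1 library left out. The share of all genes that passed in every such fit is not given here.

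Kcnab2 had the smallest p of all members. This gene on chromosome 4 (152390740 to 152477549, minus strand, mm10) encodes the beta subunit that aids the surface delivery of Shaker-type channels. In BLA its level was 120.0, 112 and 121 FPKM in the naive, conditioned and extinction libraries of B6 and 51.3, 49.9 and 54.9 FPKM in those of S1. In CeA it was 72.4, 73.2 and 74.8 FPKM in B6 and 34.8, 34.7 and 38.4 FPKM in S1. In each region every B6 library was above every S1 library. The difference, S1 minus B6, was -1.09 ± 0.06 on the log2 scale before extinction (2.13-fold lower, edgeR adjusted p = 2.6e-05) and -1.05 ± 0.07 after it (2.08-fold lower, edgeR adjusted p = 0.016). The gap did not pass a test of difference between the regions (-0.17 ± 0.10, edgeR adjusted p = 0.638) or between the states before and after extinction (0.05 ± 0.11, edgeR adjusted p = 0.963).

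Kcnab2 was also the only member of 25 tested whose transcript proportions differed between the strains (edgeR diffSpliceDGE, Simes adjusted p = 0.00015), against 1.62% of the 4678 genes tested. Its 4 transcripts combine an upstream or a downstream first exon with or without a coding exon of 42 bases. That exon lies at chr4:152434782-152434823 in GRCm38, the assembly of mm10. It is shown here because the transcripts that hold or lack it differ between the strains, in capitals between the 20 bases on either side in the spliced RNA, with the junction of the form that lacks it, both from the GENCODE vM21 transcripts matched to the RefSeq identifiers of the files.
Kcnab2 exon included: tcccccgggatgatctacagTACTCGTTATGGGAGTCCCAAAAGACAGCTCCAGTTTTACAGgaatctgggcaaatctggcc
Kcnab2 exon skipped: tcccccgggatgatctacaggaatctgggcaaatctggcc

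The main transcript, NM_010598, starts at the upstream exon and holds the 42 bases. It stood at 421, 390 and 426 CPM in the naive, conditioned and extinction BLA libraries of B6 and at 122, 128 and 132 CPM in those of S1. In CeA the values were 248, 246 and 254 CPM in B6 and 70.6, 87.4 and 74.3 CPM in S1. The transcripts with the downstream first exon went the other way. Summed, they made 5.91, 8.08 and 9.66 CPM (lowest, median and highest of 6 libraries) in B6 and 21.3, 38.4 and 44.4 CPM in S1. As a share of the gene's counts they were 1.63 to 3.50% in B6 and 16.6 to 28.5% in S1, and the share without the 42-base exon was 2.94 to 7.31% in B6 and 19.5 to 35.8% in S1. For neither share, and for neither start, did the strains overlap. Relative to the rest of the gene, the downstream-start transcripts NM_001252656 and NM_001252655 were higher in S1 by 2.25 and 2.24 on the log2 scale and NM_001252654 by 1.26. NM_010598 was relatively lower by 0.38, which did not pass (-0.38, edgeR adjusted p = 0.367).

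**Figure D3:**
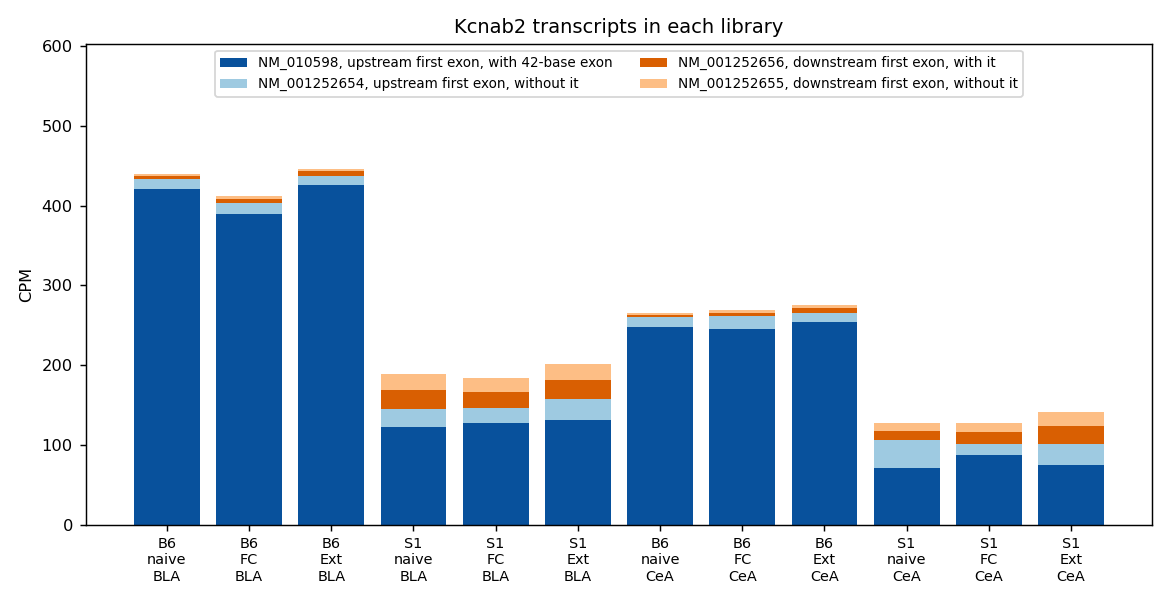
Stacked CPM of the 4 Kcnab2 transcripts in each library, BLA left and CeA right. The dark blue part, NM_010598, reaches 246 to 426 CPM in the B6 libraries and 70.6 to 132 CPM in the S1 libraries, and the orange parts, which start at the downstream exon, are larger in every S1 library than in any B6 library.

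The 250 bases before the downstream start, both of whose transcripts were higher in S1, are given from RefSeq (GRCm38.p6, chr4:152448856-152449105, minus strand). They hold none of the 5 motifs searched below.
Kcnab2 downstream start: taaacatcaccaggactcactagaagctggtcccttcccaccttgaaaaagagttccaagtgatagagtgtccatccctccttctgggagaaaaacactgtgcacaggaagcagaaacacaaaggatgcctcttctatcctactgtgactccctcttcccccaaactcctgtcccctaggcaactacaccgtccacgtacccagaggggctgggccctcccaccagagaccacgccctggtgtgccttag

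Kcns1, a silent subunit gene on chromosome 2, had a log2 difference as large as that of Kcnab2 (-1.11 ± 0.12, edgeR adjusted p = 0.0009). Its BLA levels were 3.58, 4.16 and 4.27 FPKM in the naive, conditioned and extinction libraries of B6 and 1.37, 1.59 and 1.57 FPKM in those of S1. The CeA levels were 2.90, 3.77 and 3.09 FPKM in B6 and 1.60, 1.87 and 2.24 FPKM in S1. The strains did not overlap in either region, and the gap after extinction was -0.95 ± 0.26 without passing (edgeR adjusted p = 0.22).

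Kcnip3, a calcium-binding protein of A-type channels that also acts as a transcriptional repressor, was lower in S1 by a log2 difference of -0.62 ± 0.06 (edgeR adjusted p = 0.00075). Its BLA levels were 41.7, 38.3 and 41.4 FPKM in B6 and 29.3, 25.4 and 30.1 FPKM in S1, and its CeA levels were 34.7, 32.7 and 33.5 FPKM in B6 and 19.7, 19.7 and 23.2 FPKM in S1. Kcnj11, the pore of the ATP-sensitive channel, was lower by -0.67 ± 0.09. It stood at 7.91, 6.63 and 7.62 FPKM in BLA of B6 and 5.04, 4.25 and 5.14 FPKM in BLA of S1, and in CeA at 6.58, 6.78 and 8.31 FPKM in B6 and 3.52, 4.07 and 5.57 FPKM in S1. Neither gene overlapped between the strains within a region. After extinction both gaps fell just short of the threshold, with -0.50 ± 0.06 for Kcnip3 (edgeR adjusted p = 0.0535) and -0.56 ± 0.08 for Kcnj11 (edgeR adjusted p = 0.0593).

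Kcnk2 was lower in S1 by -0.46 ± 0.06 before extinction and by -0.13 ± 0.07 after it (edgeR adjusted p = 0.512). The change of that gap had the smallest p of all members but did not pass (0.34 ± 0.11, edgeR adjusted p = 0.923). Kcnu1 (-0.34 ± 0.10, adjusted p = 0.0494) and Kcnc4 (-0.38 ± 0.11, adjusted p = 0.0374), tested with edgeR, made up the 7, and 3 of the 4 matched pairs of libraries of Kcnc4 had that sign.

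**Figure D4:**
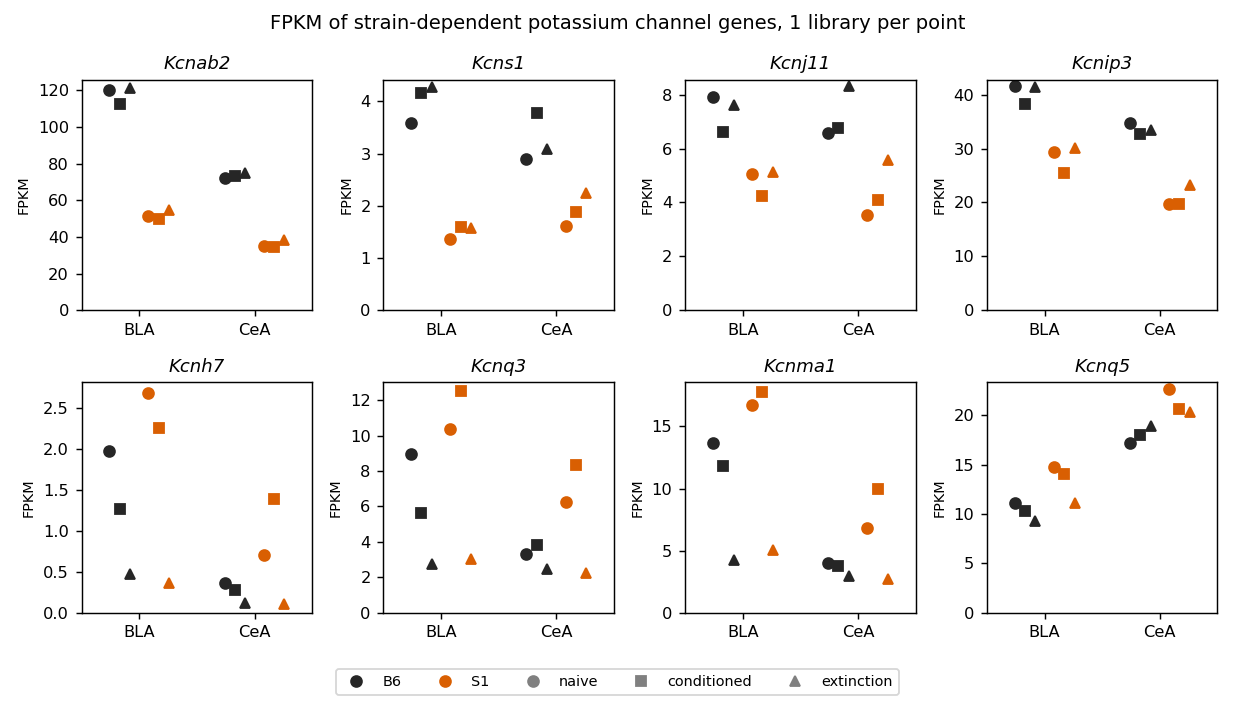
FPKM of 8 members called between the strains, on linear axes from 0, with black points for B6, orange points for S1, circles for naive, squares for conditioned and triangles for extinction libraries. In the upper row every B6 point is above every S1 point of the same region; in the lower row the S1 points of Kcnh7, Kcnq3 and Kcnma1 are above the B6 points before extinction, and the triangles of both strains lie together near the bottom.

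Of the 18 members higher in S1, 11 were voltage-gated pore-forming genes, a class that makes up 33 of the 69 members. The calcium- or sodium-activated class, with 9 members, gave 4, and the voltage-gated auxiliary class, with 7, gave none. The M-current genes Kcnq3 and Kcnq5 were included, with log2 differences of 0.87 ± 0.18 and 0.41 ± 0.06. Kcnq3 had BLA levels of 8.99, 5.65 and 2.78 FPKM in the naive, conditioned and extinction libraries of B6 and 10.4, 12.5 and 3.03 FPKM in those of S1. Its CeA levels were 3.31, 3.82 and 2.46 FPKM in B6 and 6.26, 8.33 and 2.26 FPKM in S1. The naive and conditioned libraries of S1 were thus above those of B6 in each region, and the extinction libraries were close together.

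Kcnq5 was the only member whose S1 libraries were above its B6 libraries in both regions over all conditions. In BLA it stood at 11.06, 10.3 and 9.32 FPKM in B6 and at 14.8, 14.0 and 11.09 FPKM in S1, and in CeA at 17.2, 18.0 and 18.9 FPKM in B6 and at 22.7, 20.6 and 20.4 FPKM in S1. In BLA the lowest S1 value exceeded the highest B6 value only narrowly.

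The largest difference among the higher members was in Kcnh7 (1.12 ± 0.31, edgeR adjusted p = 0.037). In BLA it was at 1.97, 1.27 and 0.469 FPKM in B6 and at 2.69, 2.25 and 0.366 FPKM in S1, and in CeA at 0.359, 0.282 and 0.118 FPKM in B6 and at 0.709, 1.39 and 0.111 FPKM in S1. In CeA the conditioned S1 library, with its raised sum of BLA markers, held the highest level of Kcnh7, Kcnq3 and Kcnma1, all of which were higher in BLA. The part of those cells was not tested. The EAG-type Kcnh5 (0.79 ± 0.19), the BK pore gene Kcnma1 (0.79 ± 0.17), the small-conductance genes Kcnn3 (0.61 ± 0.18) and Kcnn2 (0.35 ± 0.08), and the sodium-activated Kcnt2 (0.51 ± 0.14) followed. The differences of Kcnj2 (0.49 ± 0.11) and of the A-type Kcnd3 (0.38 ± 0.08) were smaller.

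Kcnj10, the main inward rectifier of astrocytes, was higher in S1 by 0.34 ± 0.09. Without 1 library it did not pass in 6 of 8 fits (edgeR adjusted p up to 0.113). With the length trend removed it had 0.22 and did not pass (edgeR adjusted p = 0.062). In S1, 4 of 6 astrocyte markers and 5 of 5 oligodendrocyte markers were lower. Their summed levels were 398 to 530 FPKM in S1 and 438 to 540 FPKM in B6 for astrocytes, and 581 to 1098 FPKM in S1 and 1114 to 1647 FPKM in B6 for oligodendrocytes, in the naive and conditioned libraries. Of 5 microglial markers 3 were lower in S1, with sums of 90.7 to 93.7 FPKM in S1 and 111 to 136 FPKM in B6. Of 5 endothelial and mural markers 2 were lower, with sums of 34.2 to 42.7 FPKM in S1 and 50.5 to 56.3 FPKM in B6. The sums of oligodendrocytes, microglia and endothelial and mural cells did not overlap between the strains. The part of these cells in any strain difference was not tested.

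Transcript length moved with the strain result. The longest transcript of the 18 higher members had a median of 5821 bases, against 3115 bases for the 7 lower members, 3703 for all members and 2848 for all genes tested. Long genes were relatively raised in the 4 naive and conditioned S1 libraries, where the rank correlation of a gene's deviation from its mean with its length was 0.185 to 0.350 over 16274 genes, against -0.248 to 0.146 in those of B6. These values describe libraries, share their genes and are given without a test. With the length trend of each library removed, 5 members were higher in S1 (Kcnh5, Kcnh7, Kcnma1, Kcnn2 and Kcnq3). The 7 that were lower included Kcnab2, Kcns1, Kcnj11, Kcnip3 and Kcnk2. In that fit 12 of 69 members were called, against 2516 of all 16274 genes (1218 higher and 1298 lower). The median of the members moved from 0.10 to 0.01 by that step. Kcnq5, which passed without any 1 library, had 0.18 and an adjusted p of 0.14 (edgeR) with the trend removed. The count of higher members also moved when single libraries were left out. It was 2 without conditioned B6 CeA, 3 without naive B6 CeA and 4 without conditioned B6 BLA. It was 4 without naive S1 CeA and 23 without naive B6 BLA. Higher calls over all genes moved too, from 2021 to 628, 775, 797, 843 and 2819 in the same order.

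**Figure D5:**
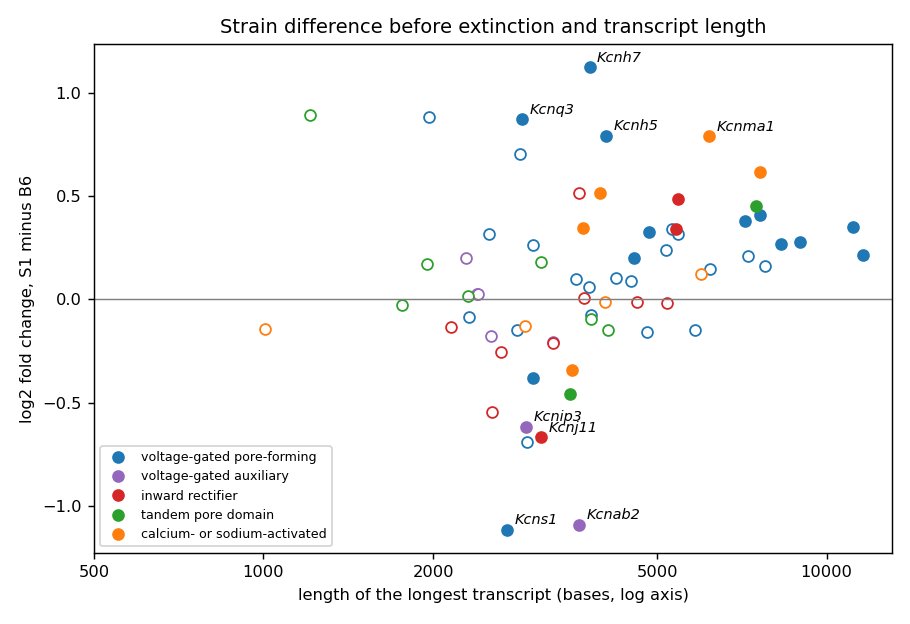
Log2 fold change between S1 and B6 before extinction against the length of the longest transcript (log axis) for the 69 members, coloured by class; filled points passed an adjusted p of 0.05. Filled points above 0 lie mostly to the right of the median member length of 3703 bases, and the lower ones, led by Kcns1 and Kcnab2, at 2712 to 3633 bases.

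In the extinction libraries no member was higher in S1 and 1, Kcnab2, was lower (edgeR), against 1.64% of all genes called (0.638% higher and 1% lower). At an unadjusted p under 0.05 the count was 11 of 69 members, against 15.0% of all genes. DESeq2 called 0 higher and 3 lower members, and over all 15996 genes 247 higher and 353 lower. Of the 25 members called before extinction, 22 had the same sign afterwards, and Kcna1, Kcna2 and Kcnh7 had the opposite sign. The share of all called genes that kept their sign is not given here. The change of the strain gap itself passed for no member (edgeR, 0% of 16523 genes called, 5 members and 3.88% of all genes at an unadjusted p under 0.05, 9 genes and no member by DESeq2). Its smallest p-values after Kcnk2 belonged to Kcnh7 (-1.38 ± 0.50) and Kcnq3 (-0.86 ± 0.31).

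Levels in the extinction libraries, whose table was normalized separately, are set beside the earlier ones as a description. In 10 members the extinction level was below both the naive and the conditioned level in all 4 pairings of strain and region. They were Kcnq3, Kcnma1, Kcnh7, Kcnh5, Kcnd3, Kcnv1, Kcnb2, Kcnj2, Kcnj16 and Kcnmb2, and made 14.5% of the members, against 5.91% of the 14017 genes with a mean of at least 0.5 FPKM. The opposite held in 4 members, Kcnip2, Kcnab2, Kcnj4 and Kcnc4, 5.80% against 7.52%. Kcnma1 was an example of the first pattern, with 13.7, 11.8 and 4.24 FPKM in the naive, conditioned and extinction BLA libraries of B6 and 16.7, 17.8 and 5.05 FPKM in those of S1. Over all genes, those below had a median transcript length of 5190 bases and those above 2164 bases. Length thus moved with this pattern too, and its part was not tested.

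No member passed the test for fear conditioning (edgeR, FC minus naive, 0% of 16274 genes called). At an unadjusted p under 0.05 there were 571 genes (3.51%) and 3 members, Kcnk2 (-0.20 ± 0.06), Kcnu1 (0.28 ± 0.10) and Kcnj12 (-0.23 ± 0.09), with adjusted p = 0.999 by edgeR. DESeq2 called 21 genes and no member, and limma no gene. Conditioning effects on the strongest strain genes were -0.03 ± 0.06 for Kcnab2 and -0.11 ± 0.06 for Kcnip3.

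No interaction passed for a member in edgeR, DESeq2 or limma. For the strain gap between regions, edgeR called 0.0307% of genes (0.00614% higher and 0.0246% lower) and DESeq2 116 genes, and 14 members had an unadjusted p under 0.05 (8.63% of all genes did), led by Kcng2 (-0.90 ± 0.19), Kcns2 (-0.48 ± 0.13) and Kcnh6 (-1.05 ± 0.28). For the strain gap between FC and naive, edgeR called 0% of genes and DESeq2 9 genes, and 2 members, Kcnj6 (1.21 ± 0.42) and Kcnc4 (0.41 ± 0.17), had an unadjusted p under 0.05 (1.80% of all genes did). For the conditioning effect between regions, edgeR called 0.0184% of genes (0.00614% higher and 0.0123% lower) and DESeq2 17 genes, and 7 members had an unadjusted p under 0.05, against 5.95% of all genes, with the smallest in Kcna3 (-1.35 ± 0.40), Kcnk12 (-0.64 ± 0.21) and Kcnj11 (-0.39 ± 0.13).

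Transcript proportions differed between regions in no member by the Simes test (1.24% of genes called) and in 3 by the gene-level F test. The share of all genes called by the F test is not given here. The smallest Simes p-values were those of Kcnq5 (edgeR adjusted p = 0.0851) and Kcns2 (edgeR adjusted p = 0.0933). For several members the split of counts between transcripts swung between libraries without following a group. The share of 1 transcript ran from 0 to 100% for Kcnk13, from 1.59 to 100% for Kcnk10, from 7.75 to 98.5% for Kcnn2 and from 19.2 to 96.6% for Kcnj3.

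Partner proteins of the channels were read from a list of 15 genes, 13 of them tested. In S1 before extinction 5 were higher and none lower, 38.5% of the list against 12.4% of all genes higher and 10.4% lower. They were Abcc8 (0.49 ± 0.10), the sulfonylurea receptor that pairs with the product of Kcnj11, then Cntn2 (0.33 ± 0.10) and Cntnap2 (0.30 ± 0.07), which cluster Shaker-type channels along myelinated axons, Adam22 (0.28 ± 0.06), a receptor of Lgi1, and Ank3 (0.23 ± 0.07), which anchors M-current channels at the axon initial segment. Abcc8 and Kcnj11 therefore differed in opposite directions between the strains. Whether these partner calls held with the length trend removed or without single libraries is not given here. In BLA before extinction 5 were higher, Abcc8 (0.97 ± 0.10), Cntn2 (0.86 ± 0.10), Lgi1 (0.68 ± 0.06), Abcc9 (0.48) and Amigo1 (0.33), and Cntnap2 was lower (-1.05 ± 0.07). These calls were 46.2% of the list, against 46.6% of all genes. After extinction Lrrc55 (0.80), Abcc8 (0.63) and Lgi1 (0.58) were higher in BLA and Cntnap2 was again lower (-1.66 ± 0.08), 30.8% of the list against 36.3% of all genes. None passed between the strains after extinction, where 3 of the 13 and 15.0% of all genes had an unadjusted p under 0.05 (edgeR).

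Promoter sequence was available from RefSeq (GRCm38.p6) for 47 of the 69 members, as 70 windows of 250 bases before a start. A set of 5 short motifs was searched on both strands, none of which contains another. The E-box CAGCTG was found in 24.3% of the member windows and in 13.0% of all 32851 windows of that length. A second E-box, CAGATG, was found in 14.3% and 14.4%. The GC box GGGCGG was found in 45.7% and 32.7%, and the TATA box, read as TATAAA, in 2.86% and 12.4%. The cyclic AMP response element TGACGTCA was found in 0% and 1.55%. Windows of 1 gene can overlap, and the shares were not tested. Windows are shown for the largest strain differences in either direction and the largest regional difference, with matches in capitals. Kcnh7 (chr2:63184288-63184537, minus strand) has 4 matches to GGGCGG, Kcns1 (chr2:164171114-164171363, minus strand) 1 to CAGCTG and 1 to GGGCGG, and Kcna5 (chr6:126535556-126535805, minus strand) none.
Kcnh7: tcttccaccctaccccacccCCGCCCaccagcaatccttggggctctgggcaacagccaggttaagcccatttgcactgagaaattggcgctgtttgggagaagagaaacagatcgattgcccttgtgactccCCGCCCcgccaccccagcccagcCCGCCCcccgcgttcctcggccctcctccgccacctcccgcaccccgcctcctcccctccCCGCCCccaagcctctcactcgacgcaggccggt
Kcns1: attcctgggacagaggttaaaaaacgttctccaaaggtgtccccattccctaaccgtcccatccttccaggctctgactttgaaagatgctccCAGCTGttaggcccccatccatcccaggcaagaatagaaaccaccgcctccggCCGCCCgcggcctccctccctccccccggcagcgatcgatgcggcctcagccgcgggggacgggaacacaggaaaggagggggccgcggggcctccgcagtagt
Kcna5: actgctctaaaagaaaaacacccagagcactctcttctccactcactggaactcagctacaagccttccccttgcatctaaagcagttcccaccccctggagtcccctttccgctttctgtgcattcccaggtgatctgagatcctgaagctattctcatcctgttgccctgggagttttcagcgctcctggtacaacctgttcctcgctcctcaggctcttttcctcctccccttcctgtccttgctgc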

How the data were processed

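RNA purified with RNeasy columns was made into TruSeq Stranded mRNA libraries, per the labels' protocols. The submitters' processing notes name StringTie, and the titles of the deposited tables name mm10, the genome of C57BL/6J. Not given in the sources used here were the aligner, its version and whether counting used strand. The authors deposited whole read counts per transcript and gene, not normalized, beside FPKM per gene and transcript lengths in bases. Here a gene's count was the sum over its transcripts, because 1 count column of the gene table was matched to no sample. For the 92 genes these sums and the authors' gene counts were equal in the 11 libraries with both.

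Counts were tested with edgeR 4.0.16 (quasi-likelihood F test, TMM, filterByExpr) in R 4.3.3 over all genes, with Benjamini-Hochberg adjustment and a threshold of 0.05. Strain, region and conditioning were terms of an additive model of 8 libraries (4 residual degrees of freedom), with 1 term added for each interaction (3). The extinction libraries were fitted alone (1), and the change of the strain gap over 12 libraries (5). P-values measure spread between single libraries around these models, not between mice. SE were derived from the fold change and F. Transcript proportions were tested with diffSpliceDGE. DESeq2 1.42.0 and limma 3.58.1 on log2(FPKM + 1) and log2(FPKM + 0.1) were alternatives, as was edgeR with matched pair terms (3 residual degrees of freedom). The code was tested on simulated counts.

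Named were members among the 10 with the largest change per direction, past the threshold and with 1 sign in every matched pair, otherwise the 3 smallest p-values, and the 3 highest members of a class. Others, among them the levels listed for extinction, family members and members called by single settings, were chosen after their values were seen. The members and lists were chosen with earlier results of these data known. Some genes that the rule would name are not reported here by name, and the counts include them.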

Additional observations from a re-analysis of the deposited data

How the results depend on the processing

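Counts of members rested on 1 library per group, so each call depends on an additive model. The count of 18 members higher in S1 before extinction was 5 with the length trend removed and 2 to 23 with 1 library left out. With limma it was 11 on log2(FPKM + 1) and 3 on log2(FPKM + 0.1). The 7 lower members were 5 to 8 with 1 library left out. Over all genes the 2021 higher calls became 1218 with the length trend removed and 628 to 2819 with 1 library left out. With limma they were 1344 on log2(FPKM + 1) and 924 on log2(FPKM + 0.1). The single lower member after extinction was 2 with RLE size factors, 3 with DESeq2 and 3 with the length trend removed. It was 3 in the 12-library fit and 0 with limma on log2(FPKM + 0.1). Lower calls over all genes, 160 in the main fit, were 214, 353, 229, 256 and 0 in the same order. For region, 41 and 12 became 38 to 41 and 10 to 15 with 1 library left out, and after extinction the 32 higher members were 18 on log2(FPKM + 0.1) and 18 to 19 with 1 library left out. With 1 library left out, transcript proportions differed by strain in 1 to 3 members and by region in 0 to 2. By the gene-level F test they differed by region in 3 members. Shares of all genes called in these transcript settings are not given here. The cause of these moves between settings was not tested. Among all genes, 49.8% of regional calls were higher in BLA with counts and 34.9% with log2(FPKM + 1), where the median gene lay at -0.08 and, with log2(FPKM + 0.1), at -0.11. For strain, 54.4% of calls were higher in S1 with counts, 40.5% with log2(FPKM + 1) and 38.2% with log2(FPKM + 0.1). For the genes taken by the naming rule, 918 values under other settings kept their direction and side of the threshold. Another 72 lost the threshold and none changed sign. The rule favoured genes past the threshold with 1 sign in every matched pair, so the kept signs do not describe all members. Outside that rule, Kcna1 and Kcna2, called higher in S1, had -0.0025 and -0.14 with the length trend removed, without passing. By replicate number, no paired analysis was possible because each group held 1 library and all carry the number 1. A term for each pair of libraries matched on the other 2 factors was chosen after seeing the data. It gave 17 higher and 6 lower members for strain, 41 and 11 for region and none for conditioning. Over all genes it gave 1983 and 1648 for strain, 3555 and 3535 for region and none for conditioning.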
